A study of Mus musculus with 6 samples.

Results

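The genes described here encode the machinery that copies DNA. They were chosen by name for their roles, with earlier results of these data known, 56 in all, and each was read from the probe set with its symbol that was brightest on average over the 6 arrays. A probe set with 1 gene symbol was found for 55 of the 56, among 18193 genes named on the array. Chaf1a, the large subunit of a histone chaperone, had none and was not analysed here. All 55 passed the filter on dim signals (a value over log2 4 on 3 or more arrays), as did 10050 named genes in all. Total RNA came from neural stem cells of C57BL/6JRj mice, 3 samples from old mice of 9 months and 3 from young mice of 6 weeks, with no other treatment or allele named in the labels. The labels do not say whether the cells were cultured, how they were sorted, whether animals were pooled, or whether replicates came from separate animals, so a p-value here covers the spread among the samples and no more, and part of that spread may be technical. These are bulk samples, in which fewer cells in S phase and less RNA per cell cannot be told apart.

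Before a cell copies its genome, the origin recognition complex marks the start sites, and Cdc6 and Cdt1 load the MCM helicase there. In S phase the kinase Cdc7 with Dbf4 fires the origins, Cdc45 and the GINS complex join the MCM ring, primase lays down short RNA primers, and the polymerases extend them on the sliding clamp PCNA. Many of these genes are switched on by E2F transcription factors as a cell leaves G1 phase. In the adult brain most neural stem cells are quiescent, and these transcripts are widely used as signs of cells that have entered the cycle.

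The stem cell label was checked against 16 marker genes. Sox2 was bright at both ages (13.30 ± 0.04 in old and 13.44 ± 0.08 in young cells, log2, SD, n = 3), and so was Nes (12.30 ± 0.08 in old and 12.76 ± 0.10 in young cells), while Gfap was dimmer (7.96 ± 0.44 in old and 7.66 ± 0.39 in young cells). Of the 15 markers with a probe set 5 fell, Nes among them, and 1 rose, with a summed linear signal of 123784 to 125033 on old and 133136 to 135234 on young arrays. The sum does not show the largest falls. Hes5 averaged log2 2.43 in old and 7.78 in young cells, and Id4 7.80 in old and 9.28 in young cells. Egfr (-0.40) and Sox9 (-0.35) fell less, and the list's median log2 change was -0.12 over its 14 kept markers. Prom1 was under log2 4 on every array. Of other cell types, all 10 microglia markers were under log2 4 on every array. Of 10 neuroblast markers 6 fell in old cells and none rose, with a summed linear signal of 31687 to 33200 on old arrays and 42915 to 44225 on young arrays (Stmn2 was under log2 4 on all 6). The bright markers carry this sum, and the 6 falls were larger than it shows. Tubb3 averaged log2 3.83 in old and 9.50 in young cells, Neurod1 2.40 in old and 8.05 in young, Dlx2 7.40 in old and 11.11 in young, and Elavl3 5.86 in old and 9.04 in young cells. The list's median log2 change was -3.17 over its 7 kept markers. Of 8 astrocyte markers 4 rose and 2 fell, with a sum of 33985 to 37001 on old and 26894 to 27558 on young arrays (Gjb6 was under log2 4 on all 6). Here too single markers changed more than the sum shows. S100b averaged log2 10.03 in old and 7.10 in young cells, Gja1 13.94 in old and 12.58 in young. Aldh1l1 averaged 9.29 in old and 8.42 in young cells, while Ntsr2 went the other way, at 4.32 in old and 7.67 in young. Of 10 oligodendrocyte lineage markers 4 fell, with a sum of 18876 to 20270 on old and 19850 to 21209 on young arrays, and Sox10, Mbp, Mog and Mag under log2 4 on all 6. Again the sum hides the falls, since Nkx2-2 averaged log2 2.26 in old and 10.51 in young cells, Cldn11 5.15 in old and 7.90 in young, Cspg4 6.14 in old and 8.13 in young, and Pdgfra 7.18 in old and 8.62 in young cells. Of 10 endothelial and mural markers 7 were under log2 4 on all 6 arrays and the other 3 (Cspg4 among them) fell, with a sum of 160.3 to 208.9 on old and 472 to 538 on young arrays. Of 8 fibroblast markers 7 were under log2 4 on all 6 and the other, Pdgfra, fell, with a sum of 132 to 214 on old and 386 to 486 on young arrays. Of 6 ependymal markers 3 rose and 1 fell. Foxj1 averaged log2 5.81 in old and 3.36 in young cells, Dynlrb2 6.81 in old and 5.68 in young. Rarres2 averaged 8.34 in old and 7.79 in young cells, and Ccdc153, which fell, 5.04 in old and 6.73 in young. The 18 probe sets that read hybridisation controls averaged 12.28 ± 0.098 on old and 13.24 ± 0.28 on young arrays (log2, SD, n = 3), and all 18 had old arrays wholly below young arrays. These differences run along with every comparison below, and their part in it was not tested.

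At their brightest probe sets, replication transcripts differed little between old and young cells. A log2 change below 0 was found for 39 of the 55 members, against 4856 of 10050 named genes, and 16 members had one above 0. The clearest falls were in both primase subunits, Prim1 and Prim2, in the helicase subunit Mcm7 and, less stable across alternatives, in the GINS subunit Gins1. The transcription factor E2f1 and the S phase cyclin Ccne2 rose. By limma, 10 of the 55 members fell at an adjusted p under 0.05, against 18.5% of all 10050 named genes, and 2 rose, against 22.0%. So 21.8% of the members changed, against 40.6% of all named genes and 36.6% of all kept probe sets, while the median standard error of a change was 0.079 for the members and 0.082 for all genes. The members' median log2 change was -0.13, against 0.01 over all named genes.

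Changes were small. Of the 55 members, 53 had a log2 change under 0.5 in size, against 74.1% of all named genes, and the other two were Ccne2 and E2f1. The 3 old arrays all lay below the 3 young arrays for 23 members, against 28.2% of all named genes, and all above them for 6 members, against 31.8%. An unadjusted p under 0.05 was reached by 19 of the 55 members, against 5204 of the 10050 named genes. Levels ranged from a mean of log2 5.13 for Orc1 to 14.20 for Rrm2, with a median of 11.72, so no member sat at the floor of the array.

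**Figure D1:**
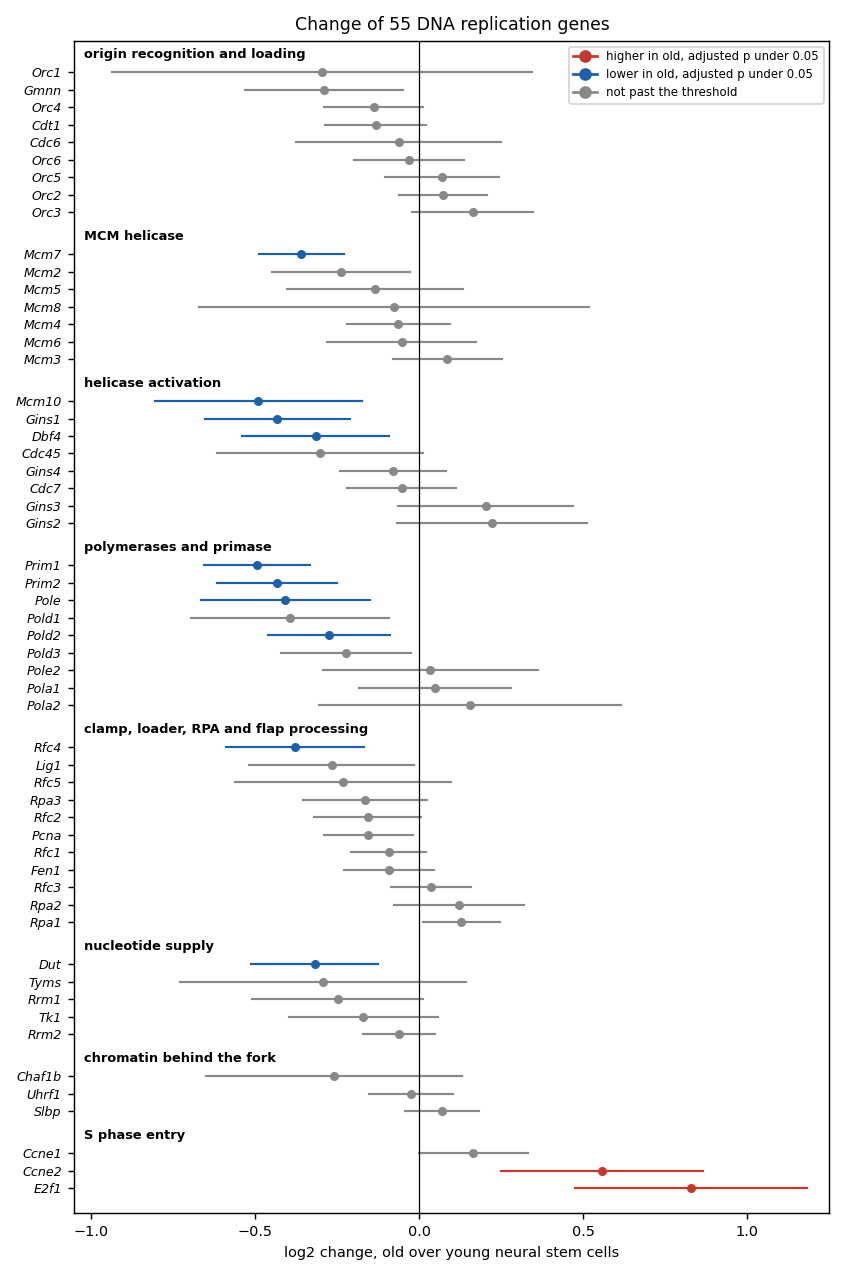
Log2 change of each of the 55 members, old over young, grouped by role and sorted within each group, with its 95% interval from limma (3 arrays at each age). The 10 members in blue fell, the 2 in red rose, and the grey ones did not pass an adjusted p of 0.05. Polymerases and primase hold 4 of the 10 falls, or 44.4% of that group, against 18.5% of all named genes. Differences between groups were not tested.

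The members also varied together between arrays of 1 age. Old replicate 3 had the lowest of the 3 old values for 49 of 55 members, against 30.6% of all named genes, and old replicate 1 had the highest for 42. Among young arrays, replicate 2 was lowest for 36 members, against 54.6% of all named genes. The mean level over the 55 members was 11.59, 11.53 and 11.41 on the old arrays, against 11.66, 11.53 and 11.65 on the young arrays (log2, replicates 1 to 3). The ages thus overlapped in this mean, with old replicate 1 above young replicate 2 and old replicate 2 barely above it (11.527 against 11.525). Young replicate 2 was also low over all named genes. With each gene centred on its mean over the 6 arrays, the members' mean minus that of all named genes was 0.02, -0.05 and -0.19 on the old arrays, against 0.06, 0.06 and 0.10 on the young arrays, and here the ages did not overlap. Members share these arrays and are no replicates of each other, so their joint direction rests on 3 arrays at each age. With old replicate 3 left out, the median change was -0.07 and 7 members fell, and with young replicate 2 left out the values were -0.16 and 7. Without old replicate 2 and without young replicate 3, 5 members fell in each case, and without young replicate 1 there were 6. With old replicate 3 left out, Orc6, Cdc6, Mcm6, Mcm8 and Uhrf1, none of them past the threshold, had changes above 0.

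**Figure D2:**
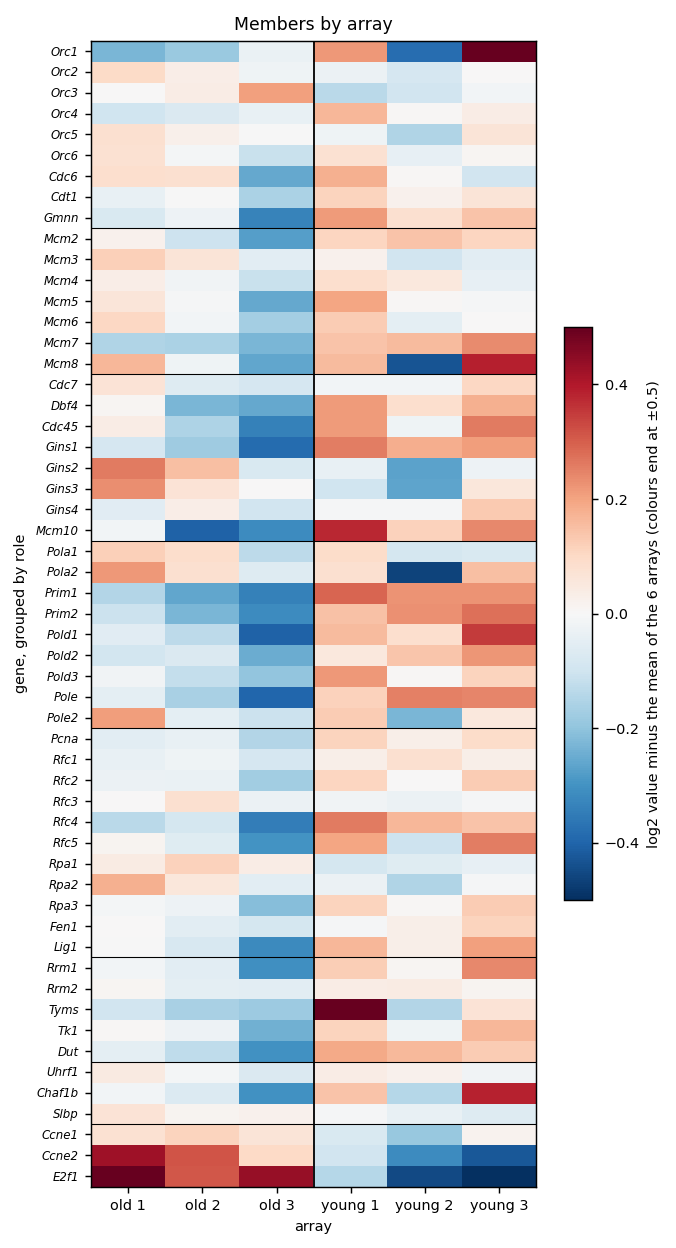
Each row is a member and each column an array; the colour gives the log2 value minus the gene's mean over the 6 arrays, with colours ending at ±0.5. Old replicate 3 is the bluest old column, and the last rows, Ccne2 and E2f1, are red on old and blue on young arrays.

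At their brightest probe sets, 0 of the 9 factors that mark and license origins passed the test, against 40.6% of all named genes. Whether this small group differs from all genes was not tested. Orc2 to Orc6, subunits of the origin recognition complex, had changes between -0.14 (Orc4) and 0.16 (Orc3), and that of Orc6 was -0.03 (-0.20 to 0.14), with its 95% interval in parentheses. Both dimmer probe sets of Orc3 passed as higher, at 0.31 (adjusted p = 0.0213) and 0.65 (adjusted p = 0.00961). Orc1, the subunit whose level cycles in mammalian cells, was the dimmest member, with log2 values of 4.90, 4.95 and 5.10 in old cells, against 5.35, 4.75 and 5.74 in young cells. Its ages overlapped, and its change of -0.30 (95% interval -0.94 to 0.34, adjusted p = 0.401) has a wide interval. Without young replicate 2 it passed as lower, at -0.56 (adjusted p = 0.0406). The loader Cdc6 had a change of -0.06 (95% interval -0.37 to 0.25, adjusted p = 0.717) and its partner Cdt1 one of -0.13 (95% interval -0.29 to 0.02, adjusted p = 0.147). Geminin (Gmnn), which binds Cdt1 and prevents a second loading, was lower on every old array, at 12.39, 12.44 and 12.13 in old cells, against 12.68, 12.54 and 12.61 in young cells. Its change was -0.29 (95% interval -0.53 to -0.05, adjusted p = 0.0654), short of the threshold.

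In the MCM ring, the subunits Mcm2 to Mcm7 unwind the DNA as 1 hexamer. Of these 6 transcripts 1 fell, against 18.5% of all named genes. Mcm7 had log2 values of 12.99, 12.99 and 12.91 in old cells, against 13.29, 13.30 and 13.38 in young cells. The ages did not overlap, the change was -0.36 (95% interval -0.49 to -0.23, adjusted p = 0.00496), and on the linear scale the old level was 22.0% lower. The 3 other kept probe sets of Mcm7 fell as well, by log2 changes of -0.33, -0.26 and -0.32. Mcm2 had 12.48, 12.36 and 12.19 in old cells, against 12.57, 12.60 and 12.57 in young cells, again without overlap, with a change of -0.24 (95% interval -0.45 to -0.03, adjusted p = 0.0779). A dimmer probe set of Mcm2 fell (-0.39, 95% interval -0.64 to -0.14, adjusted p = 0.0322), and without old replicate 1 the brightest one passed too (adjusted p = 0.0445). Mcm3 (0.09, -0.08 to 0.25), Mcm4 (-0.06, -0.22 to 0.09), Mcm5 (-0.13, -0.40 to 0.13) and Mcm6 (-0.05, -0.28 to 0.17) had 95% intervals that include 0, and those of Mcm3, Mcm4 and Mcm6 do not reach as low as the estimate for Mcm7. Whether subunits differ in their change was not tested. Mcm8, a relative that works with Mcm9 in recombination, varied more between arrays, with a change of -0.08 (95% interval -0.67 to 0.52, adjusted p = 0.818).

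E2F factors recognise short sites near the start of many of these genes, and the upstream stretches below show such letters in a member that fell and in members that did not pass. RefSeq promoter windows of build GRCm38.p6, from 250 bases before to 50 bases after each gene's start, were matched by symbol to 47 of the 56 listed members, Chaf1a among them (Gmnn, Mcm4, Gins1, Gins2, Gins4, Prim2, Pole, Rfc2 and Ccne2 were not matched). They were searched on both strands for TTTGGCGC, TTTCCCGC, TTTCGCGC and TTTGCCGC, which can overlap each other on opposite strands. At least 1 match was found in 17 of 47 members (36.2%), against 2.61% of all 27025 genes with a window and 1 of 31 mitosis genes. Among the members that fell, 1 of 7 had a match, and among those that did not pass, 16 of 38. Of the members that rose only E2f1 had a window, without a match. The stretches are 60 bases each, 5′ to 3′ along the gene, upstream of its start, with the matches in capitals. That of Mcm7 lies at chr5:138172015-138172074 on the minus strand, that of Mcm6 at chr1:128359782-128359841 on the minus strand, and that of Mcm5 at chr8:75109332-75109391 on the plus strand. That of Cdc6 lies at chr11:98907987-98908046 on the plus strand, that of Gins3 at chr8:95633492-95633551 on the plus strand, and that of Pola1 at chrX:93632260-93632319 on the minus strand.
Mcm7: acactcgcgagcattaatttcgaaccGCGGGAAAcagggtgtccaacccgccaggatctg
Mcm6: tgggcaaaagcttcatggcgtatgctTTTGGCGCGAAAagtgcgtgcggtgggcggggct
Mcm5: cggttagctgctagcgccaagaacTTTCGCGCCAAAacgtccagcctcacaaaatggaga
Cdc6: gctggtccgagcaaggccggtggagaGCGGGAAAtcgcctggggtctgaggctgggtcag
Gins3: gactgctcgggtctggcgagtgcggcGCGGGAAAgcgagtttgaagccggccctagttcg
Pola1: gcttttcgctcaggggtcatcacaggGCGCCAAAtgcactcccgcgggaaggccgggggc
Of these 6 genes, Mcm7 fell and the others did not pass the test. In Mcm6 and Mcm5 matches on opposite strands overlap in a run of capitals. A match is a description of the letters in the window and was not set against any measure of binding.

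Among the factors that turn a loaded helicase into a moving one, 3 of 8 fell (37.5%, against 18.5% of all named genes). Gins1 had log2 values of 12.11, 12.01 and 11.81 in old cells, against 12.45, 12.37 and 12.40 in young cells, with no overlap, and its change was -0.43 (95% interval -0.65 to -0.21, adjusted p = 0.0152). Its other kept probe set was dim and overlapped between the ages, at -0.27 (95% interval -0.62 to 0.09, adjusted p = 0.192), and the call was also lost when dim probe sets were kept in the fit. The other GINS subunits did not pass. Gins2 had 11.46, 11.35 and 11.12 in old cells, against 11.17, 10.93 and 11.18 in young cells, where the ages overlapped, and a change of 0.22 (95% interval -0.07 to 0.51, adjusted p = 0.187). Gins3 was at 0.20 (-0.06 to 0.47) and Gins4 at -0.08 (-0.24 to 0.08). The 95% intervals of Gins1 and of Gins2 and Gins3 do not overlap. The difference itself was not tested.

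Mcm10, which helps the helicase to separate and start, had 9.65, 9.26 and 9.35 in old cells, against 10.04, 9.78 and 9.91 in young cells. The groups did not overlap, and the change was -0.49 (95% interval -0.80 to -0.17, adjusted p = 0.0315). The second probe set of Mcm10 had -0.40 (95% interval -0.72 to -0.07, adjusted p = 0.0619). Dbf4, the activating subunit of the Cdc7 kinase, had 12.33, 12.09 and 12.07 in old cells, against 12.53, 12.40 and 12.50 in young cells, without overlap, and a change of -0.32 (95% interval -0.54 to -0.09, adjusted p = 0.0415). Its other kept probe set, a dim one, had 0.21 (95% interval -0.38 to 0.79, adjusted p = 0.515). The kinase subunit Cdc7 itself was at -0.05 (-0.22 to 0.11). The helicase cofactor Cdc45 was at -0.30 (95% interval -0.62 to 0.01, adjusted p = 0.114), with overlapping ages. The Mcm10 call was lost without old replicates 2 or 3 and young replicates 1 or 3 (adjusted p up to 0.101), and the Dbf4 call in every leave-out but that of old replicate 1 (adjusted p up to 0.125).

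Polymerases and primase held the most falls, 4 of 9 (44.4%, against 18.5% of all named genes). Over all 55 members the share that fell was 18.2%, and differences between the small role groups were not tested. Prim1, the catalytic subunit of primase, had log2 values of 12.97, 12.85 and 12.78 in old cells, against 13.40, 13.34 and 13.34 in young cells. Every old array was below every young one by more than the spread within either age, the change was -0.49 (95% interval -0.66 to -0.33, adjusted p = 0.00363), and the old level was 29.0% lower on the linear scale. Its second probe set gave -0.51. Prim2, the large primase subunit, had 11.51, 11.39 and 11.30 in old cells, against 11.76, 11.84 and 11.89 in young cells, again without overlap, with a change of -0.43 (95% interval -0.62 to -0.25, adjusted p = 0.00828), or 25.9% lower. Its second probe set gave -0.45. Both primase calls held on leaving out each array in turn.

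Primase works in 1 complex with the polymerase alpha subunits Pola1 and Pola2, and these did not pass. Pola1 had 10.90, 10.87 and 10.65 in old cells, against 10.87, 10.69 and 10.70 in young cells, with overlapping ages and a change of 0.05 (95% interval -0.18 to 0.28, adjusted p = 0.696). Its interval lies wholly above those of Prim1 and Prim2. Pola2 was dimmer and more variable (0.16, 95% interval -0.31 to 0.62, adjusted p = 0.537).

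Pole, the catalytic subunit of the leading strand polymerase epsilon, had 10.11, 10.00 and 9.77 in old cells, against 10.28, 10.42 and 10.41 in young cells and a change of -0.41 (95% interval -0.67 to -0.15, adjusted p = 0.0298). The ages did not overlap. Its partner Pole2 was at 0.03 (95% interval -0.29 to 0.36, adjusted p = 0.857), with overlap. Of polymerase delta, which copies the lagging strand, Pold2 had 11.02, 11.04 and 10.87 in old cells, against 11.17, 11.25 and 11.33 in young cells and fell (-0.27, 95% interval -0.46 to -0.09, adjusted p = 0.0371). The catalytic subunit Pold1 was lower on every old array, at 11.38, 11.30 and 11.03 in old cells, against 11.59, 11.51 and 11.78 in young cells, and just missed the threshold (-0.39, 95% interval -0.69 to -0.09, adjusted p = 0.0518). Pold3 was at -0.22 (95% interval -0.42 to -0.02, adjusted p = 0.0785). Pold1 did pass when arrays were centred on their median (adjusted p = 0.0449) and when probe sets were averaged (adjusted p = 0.0456). The Pole call was lost without old replicate 2 and young replicates 2 or 3 (adjusted p up to 0.0885), and the Pold2 call in every leave-out but that of young replicate 1 (adjusted p up to 0.1002).

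**Figure D3:**
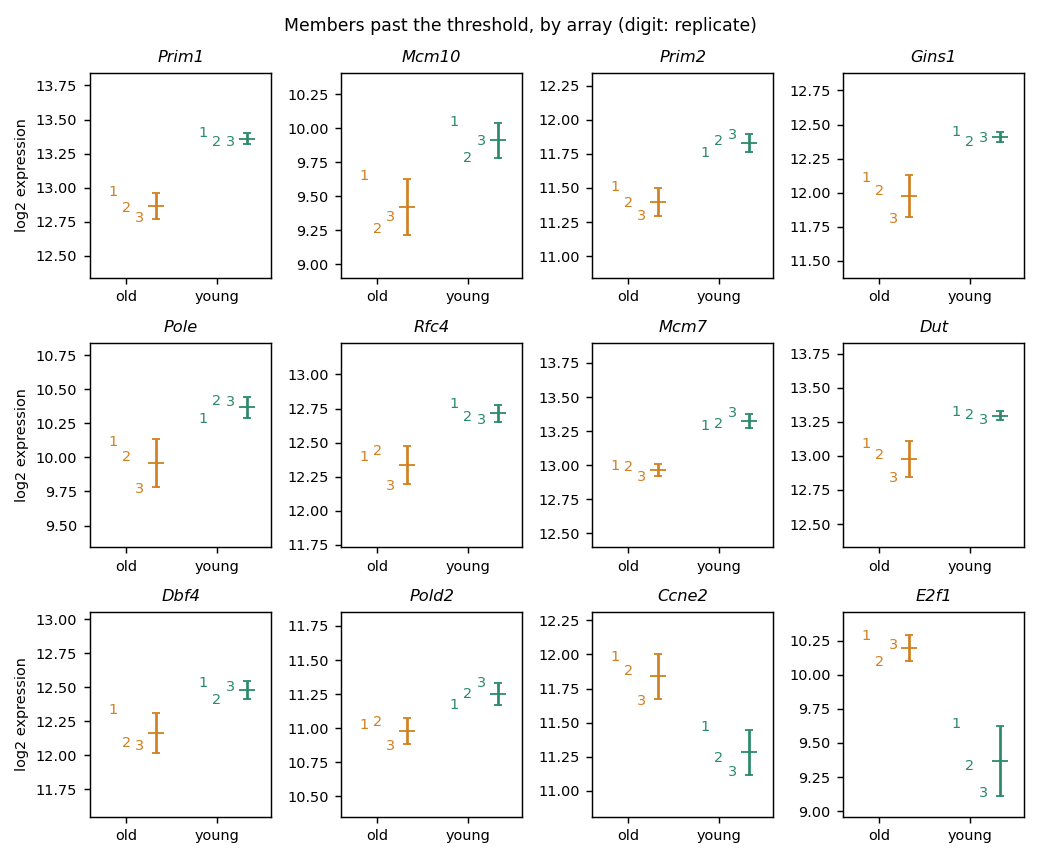
Log2 expression of the 12 members past the threshold, each digit being the replicate number of an array, with old left of young; the bar beside them is mean ± SD (n = 3), and every panel spans log2 1.5. In 10 panels all old arrays lie below all young ones, and in those of Ccne2 and E2f1 all lie above.

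The clamp, its loader, the single-strand binding protein RPA and the enzymes that join Okazaki fragments count 11 members. Of these 1 fell (9.09%, against 18.5% of all named genes). Rfc4, a subunit of the clamp loader, had 12.39, 12.44 and 12.18 in old cells, against 12.78, 12.69 and 12.67 in young cells, with no overlap, and a change of -0.38 (95% interval -0.59 to -0.17, adjusted p = 0.0200). Its second probe set fell as well (-0.37), and its call was lost without young replicate 1 (adjusted p = 0.057). The other loader subunits were at -0.09 (-0.21 to 0.02) for Rfc1, -0.16 (-0.32 to 0.01) for Rfc2, 0.04 (-0.09 to 0.16) for Rfc3 and -0.23 (-0.56 to 0.10) for Rfc5. Pcna, the clamp and a common marker of dividing cells, was among the brightest members, with 14.06, 14.08 and 13.97 in old cells, against 14.23, 14.14 and 14.21 in young cells. Every old array was below every young one, but the change of -0.16 (95% interval -0.29 to -0.02, adjusted p = 0.0741) did not pass. The ligase Lig1 was at -0.27 (95% interval -0.52 to -0.01, adjusted p = 0.0919), and the flap nuclease Fen1 at -0.09 (95% interval -0.23 to 0.05, adjusted p = 0.239). The RPA subunits lay on both sides of 0, with Rpa1 at 0.13 (95% interval 0.01 to 0.25, adjusted p = 0.0817), Rpa2 at 0.12 (95% interval -0.08 to 0.32, adjusted p = 0.273) and Rpa3 at -0.17 (95% interval -0.35 to 0.02, adjusted p = 0.141). Rpa1 was higher on every old array, and its second probe set passed as higher (0.31, 95% interval 0.19 to 0.43, adjusted p = 0.00624).

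Of the enzymes that supply nucleotides, 1 of 5 fell (20%, against 18.5% of all named genes), and all 5 had changes below 0. Dut, which keeps uracil out of DNA by removing dUTP, had 13.09, 13.01 and 12.83 in old cells, against 13.32, 13.30 and 13.26 in young cells, without overlap, and a change of -0.32 (95% interval -0.51 to -0.13, adjusted p = 0.0259). Its dimmer probe set was at 0.06 (95% interval -0.32 to 0.43, adjusted p = 0.786), and its call was lost without old replicate 2 or any young replicate (adjusted p up to 0.0696). Rrm1, the large subunit of ribonucleotide reductase, was at -0.25 (95% interval -0.51 to 0.01, adjusted p = 0.118). Rrm2, the small subunit whose level follows S phase, had 14.21, 14.15 and 14.15 in old cells, against 14.24, 14.24 and 14.22 in young cells at a probe set near the top of the scale, with a change of -0.06 (95% interval -0.17 to 0.05, adjusted p = 0.319), while its dimmest kept probe set fell (-0.51, 95% interval -0.84 to -0.18, adjusted p = 0.0312). The thymidine kinase Tk1 was at -0.17 (95% interval -0.40 to 0.06, adjusted p = 0.194) and the thymidylate synthase Tyms, read from a dim probe set, at -0.29 (95% interval -0.73 to 0.14, adjusted p = 0.236). Among the chromatin factors, the histone chaperone subunit Chaf1b was at -0.26 (95% interval -0.65 to 0.13, adjusted p = 0.244), the methylation reader Uhrf1 at -0.03 (95% interval -0.15 to 0.10, adjusted p = 0.715) and the histone mRNA binding protein Slbp at 0.07 (95% interval -0.04 to 0.18, adjusted p = 0.266). None of these 3 passed, against 40.6% of all named genes that did, and so few genes allow no reading of the difference.

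The 3 genes that drive entry into S phase had changes above 0, and 2 of them rose, against 22.0% of all named genes. E2f1, a transcription factor that activates replication genes, had log2 values of 10.28, 10.09 and 10.22 in old cells, against 9.64, 9.33 and 9.13 in young cells. Every old array was above every young one, the change was 0.83 (95% interval 0.48 to 1.18, adjusted p = 0.00842), and the old level was 77.6% higher on the linear scale. Ccne2, a cyclin that activates Cdk2 at the start of S phase, had 11.98, 11.88 and 11.66 in old cells, against 11.46, 11.24 and 11.14 in young cells, without overlap, with a change of 0.56 (95% interval 0.25 to 0.87, adjusted p = 0.0194), or 47.2% higher. Its relative Ccne1 had 10.38, 10.42 and 10.37 in old cells, against 10.23, 10.12 and 10.33 in young cells, again without overlap, and a change of 0.17 (95% interval -0.0005 to 0.33, adjusted p = 0.106) that did not pass, while its second probe set rose (0.30, 95% interval 0.10 to 0.51, adjusted p = 0.0360). The E2f1 call held on leaving out each array in turn. The Ccne2 call was lost without old replicates 1 or 2 and young replicates 2 or 3 (adjusted p up to 0.0676).

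The other probe sets of each gene served as a check. Of 120 member probe sets 103 passed the filter, and 33 members had at least 2. All kept probe sets had changes of 1 sign for 25 of the 33, and no member had probe sets that opposed each other at an unadjusted p under 0.05. For 18 of the 33, the other kept probe sets had a larger median size of change than the brightest. Besides Mcm2, Rrm2, Rpa1 and Ccne1, the origin subunit Orc3 did not pass at its brightest probe set but rose at both others. Their changes were 0.31 (95% interval 0.13 to 0.48, adjusted p = 0.0213) and 0.65 (95% interval 0.36 to 0.94, adjusted p = 0.00961). Counting any kept probe set, 12 members fell and 5 rose. Genes with several probe sets are called more easily this way. No such share was taken over all named genes, so these counts cannot be set against the shares above.

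**Figure D4:**
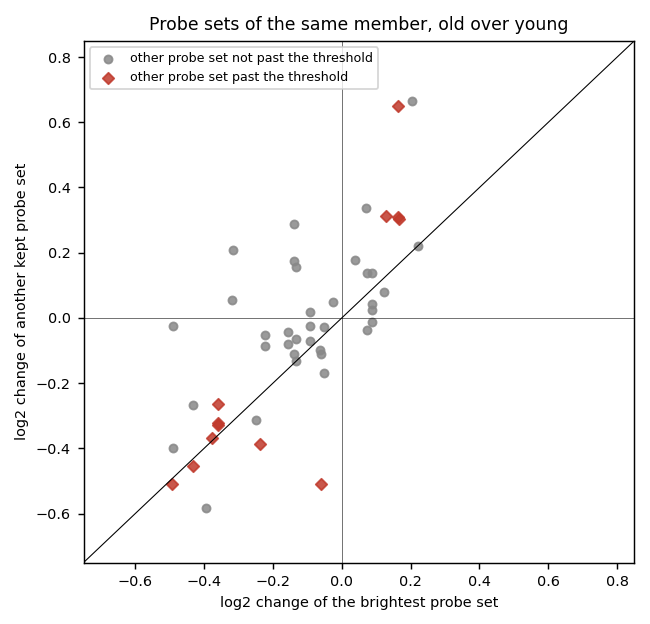
Each point is a further kept probe set of a member, with its log2 change (old over young) against that of the member's brightest probe set; the line marks equal changes. Red diamonds passed an adjusted p of 0.05, and for 25 of the 33 members all points lie at the lower left or the upper right, where the probe sets share their sign.

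Other genes of the pathway were read from 4 lists of 106 genes that share no gene with the members. A probe set was found for 102 and 97 passed the filter, with a median change of -0.09. Of the 97, 20 fell (20.6%, against 18.5% of all named genes) and 9 rose (9.28%, against 22.0%). By list, the share that fell was 21.9% for fork and origin factors and 23.8% for nucleotide supply. It was 11.1% for chromatin genes and 23.1% for E2F and G1 control. Without old replicates 1, 2 or 3 the number that rose was 4 in each case, and without young replicate 3 it was 5. Without old replicate 2 or 3 the number that fell was 13. In the list of fork and origin factors 7 of 32 fell and 4 rose. Ticrr, which brings Cdc45 to the helicase, was 49.9% lower (adjusted p = 0.00524), with log2 values of 7.57, 7.50 and 7.07 in old cells, against 8.42, 8.44 and 8.28 in young cells, and the fork protection factor Timeless had a change of -0.57 (95% interval -0.82 to -0.32, adjusted p = 0.00951). Of 3 small accessory polymerase subunits on that list, grouped after their values were seen, Pold4 and Pole4 rose, and Pole3 was at 0.04 (95% interval -0.18 to 0.27, adjusted p = 0.720) with overlapping ages. Pold4, the smallest subunit of polymerase delta, had 10.38, 10.72 and 10.89 in old cells, against 9.56, 9.43 and 9.83 in young cells, with a change of 1.06 (95% interval 0.63 to 1.48, adjusted p = 0.00693). Pole4, a small subunit of polymerase epsilon, had 12.98, 12.99 and 12.94 in old cells, against 12.58, 12.46 and 12.58 in young cells, with a change of 0.43 (95% interval 0.30 to 0.57, adjusted p = 0.00293). In Pold4 and Pole4 every old array lay above every young one, the opposite order to Pold2 and Pole.

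In the list of nucleotide supply 5 of 21 fell and 2 rose. The first 4 by p all fell, namely the serine hydroxymethyltransferases Shmt2 (-0.54) and Shmt1 (-0.50), the folate enzyme Mthfd2 (-0.36) and the nucleoside diphosphate kinase Nme1 (-0.31), with adjusted p of at most 0.00601. Of 18 chromatin genes 2 fell and none rose, the maintenance methyltransferase Dnmt1 (-0.39, 95% interval -0.61 to -0.16, adjusted p = 0.0230) and Mms22l, which acts at stalled forks (-0.40, 95% interval -0.65 to -0.15, adjusted p = 0.0298). The Dnmt1 call was lost without old replicates 2 or 3 and young replicates 2 or 3 (adjusted p up to 0.0792), and the Mms22l call without old replicates 2 or 3 and young replicates 1 or 3 (adjusted p up to 0.0847). In the list of E2F and G1 control 6 of 26 fell and 3 rose. E2f7, a repressor of the E2F family, had 10.30, 10.27 and 9.93 in old cells, against 11.04, 11.23 and 11.22 in young cells. Its old level was 49.9% lower (adjusted p = 0.00280), while that of E2f1 was higher. The cyclin Ccnd3 (-0.64), its kinase Cdk4 (-0.34) and the transcription factor Myc (-0.42) fell as well, with adjusted p of at most 0.00690.

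Genes of mitosis, in which the copied chromosomes are separated, showed larger differences on the same arrays. Of 35 measured mitosis genes 30 fell (85.7%, against 18.5% of all named genes) and 1, Ccnb2, rose. Ccnb2 averaged log2 9.93 in old and 3.00 in young cells, a change of 6.93, at a probe set under log2 4 on every young array. The median log2 change of the 35 was -0.55, against -0.13 for the replication members and 0.01 for all named genes. Cdc25c had a change of -0.97 (95% interval -1.10 to -0.85, adjusted p = 0.000205). The topoisomerase Top2a had a change of -0.40 (95% interval -0.56 to -0.24, adjusted p = 0.00706), the centromere histone Cenpa of -0.71 (95% interval -0.84 to -0.57, adjusted p = 0.000635) and the mitotic regulator Cdca3 of -0.46 (95% interval -0.61 to -0.32, adjusted p = 0.00303). The proliferation marker Mki67 was at -0.54 (95% interval -0.89 to -0.19, adjusted p = 0.0331), which no longer passed without old replicates 1, 2 or 3 or young replicate 3 (adjusted p up to 0.103). Old replicate 3 was lowest of the old arrays for 34 of the 35 mitosis genes, as it was for 49 of the 55 members. The difference between these groups of genes was not tested. Mitotic promoters often carry another short element, known as CHR, read here as TTTGAA or TTCGAA on either strand and not contained in the E2F-type letters above. It was found in the windows of 25 of 31 mitosis genes and 9 of 47 members, against 21.7% of all genes with a window. Among the members with a window, 3 of 7 that fell and 6 of 38 that did not pass held it. These counts are small, and no link to the changes was tested.

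**Figure D5:**
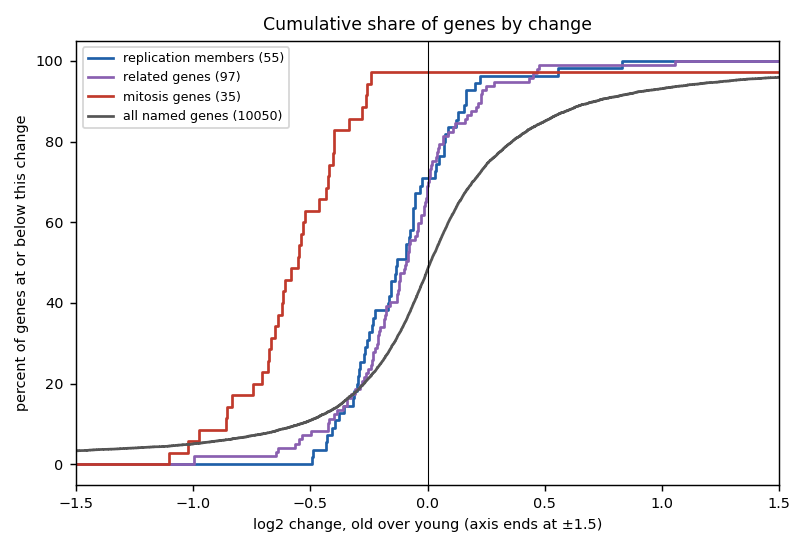
Share of genes at or below each log2 change, old over young, for the 55 members, the 97 related genes, the 35 mitosis genes and all 10050 named genes; the axis ends at ±1.5. The curves of members and related genes lie close together, left of all genes in the upper part and right of it in the lower tail, and the mitosis curve lies further left over most of its range, around its median of -0.55.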

How the data were processed

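Per the labels' protocols, total RNA was isolated with a NucleoSpin XS kit and labelled with biotin; each of the 6 samples was read on 1 Affymetrix array. The deposited log2 expression values per probe set were made by the authors with GCRMA, per the submitters' processing notes. The sources used here give no version. This method adjusts for nonspecific binding from probe sequence, normalizes the arrays to each other and summarises probes per probe set, so levels are relative within the array set, and dim probe sets share a floor (log2 2.14). No detection calls were used.

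Of 45101 probe sets, 34945 had 1 gene symbol in the platform annotation, and symbols were checked by Entrez identifier against RefSeq names of GRCm38.p6. Probe sets above log2 4 on at least 3 arrays (19858) were fitted together with limma 3.58.1 in R 4.3.3 (lmFit, eBayes, two-sided, Benjamini-Hochberg over all of them, threshold 0.05), with 4 residual and 1.47 prior degrees of freedom. Each gene stands for its brightest probe set. The fit was also run on simulated data with independent noise for each probe set. That run does not cover genes that vary together between arrays, as the members did here. The members, lists and named genes (all members, and up to 4 genes by smallest p of each other list, with Sox2, Nes, Gfap, Mki67, Top2a and Ccnb2) were chosen with earlier results of these data known. Alternatives were other filters, repeated quantile normalization, median centring, array weights, a replicate block, eBayes options, other thresholds, other choices of probe set and leaving out each array. Precision is limited by the number of arrays. Figures were drawn with matplotlib 3.10.9.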

Additional observations from a re-analysis of the deposited data

How the results depend on the processing

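The reported counts were 10 members lower, 2 higher and 7268 probe sets called, and the cause of each shift below was not tested. With no filter 3 members were lower and 1 higher, and 19 mitosis genes lower against 30. At an adjusted p under 0.01, 3777 probe sets were called (2148 probe sets higher in old, 1629 probe sets lower in old), with 3 members lower, 1 higher, 11 related genes lower, 3 higher and 16 mitosis genes lower. At 0.1, and also with eBayes using a trend, 16 members were lower. With probe sets averaged per gene 5 members were higher. By the second-brightest probe set, chosen after seeing the data and available for 33 members, 5 members, 11 related and 16 mitosis genes were lower and 3 related genes higher. Of the members, Orc3 (0.31), Rpa1 (0.31) and Ccne1 (0.30) passed as higher there. Only genes with a second kept probe set enter these counts, so they cannot be set against the main ones. Dbf4 (0.21), Dut (0.0565) and Mms22l (0.26) changed sign without passing. Members not past the threshold also changed sign, none passing. They were Orc4 (0.175) and Uhrf1 (0.0485) by the second-brightest probe set, Orc4 (0.0535) and Uhrf1 (0.0114) with probe sets averaged, and Pole2 (-0.0138) with array weights. Leaving out 1 array spread Orc6 from -0.0756 to 0.0173, Cdc6 from -0.125 to 0.0502, Mcm6 from -0.117 to 0.0191, Mcm8 from -0.311 to 0.0986, Pola2 from -0.0373 to 0.269, Pole2 from -0.0719 to 0.105 and Uhrf1 from -0.0538 to 0.0041. Leaving out 1 array gave 5010 to 6838 probe sets called (2768 to 3961 higher, 2177 to 3301 lower), 5 to 10 members lower and 1 to 2 higher, 13 to 21 related genes lower and 4 to 8 higher, 25 to 28 mitosis genes lower, and a member median of -0.16 to -0.07. Mcm7, Prim1, Prim2 and E2f1 kept their calls under every alternative run for them, the second-brightest probe set included where there was one. With the replicate number as a block, 7 members were lower, 2 higher, and 4 related genes higher against 9. Same-numbered arrays had deviations correlated at -0.16, -0.11 and 0.16 over 19858 probe sets, so the numbers were not taken to pair the samples, and not every array correlated best with its own number. Centring the arrays on their median gave 13 members lower and 2 higher, and quantile normalization again 11 and 2.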

Other observations

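The members are spread unevenly over the chromosomes of GRCm38.p6. Chromosome 5 holds 11 of the 55 (20%), against 6.51% of all named genes, among them Mcm7, Cdc7, Dbf4, Pole and 4 of the 5 clamp loader subunits. Of these 11, 3 fell, against 15.4% of all named genes on that chromosome. Chromosome 2 holds 7 members, of which Gins1, Mcm10 and Dut fell and E2f1 rose, against 16.9% of all named genes there that fell. Chromosome 8 holds 6 members, Gins2, Gins3, Gins4, Mcm5, Cdt1 and Orc6. In limma 0 of them fell, against 14.2% of all named genes there. Also 0 rose, against 22.0% of all named genes on the array. Only Rfc4 of the clamp loader passed, and it lies on chromosome 16. These counts are small, and whether calls differ by chromosome was not tested.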
